A study of Mus musculus with 35 samples.

Results

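The respiratory chain and ATP synthase genes were followed through 35 RNA-seq libraries of mouse cardiac fibroblasts (CFs) and hearts in which the micropeptide gene 4930523C07Rik, the mouse IAMP gene, had been knocked down or mutated. The genes were chosen by symbol alone, as those naming a subunit of complex I (Nduf), II (Sdh), III (Uqcr), IV (Cox4 to Cox8) or V (Atp5) or a protein encoded by mitochondrial DNA. The rule found 102 of the 55487 gene rows, 89 in the nuclear genome on 19 chromosomes and 13 in the mitochondrial genome. Complex I had 45 rows (38 nuclear, 7 mitochondrial), complex II 4, complex III 9 (8 and 1), complex IV 24 (21 and 3, with Ndufa4 and Ndufa4l2 counted here) and complex V 20 (18 and 2). The symbol Atp5o stood on 2 rows, the other members on 1 each, and 85 of the 89 nuclear rows were annotated as protein coding. Of the 102 rows, 96, 96 and 95 passed the filter on low counts in the untreated, IL17 and TGF CF tables and 99 did so in hearts.

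The CFs came from adult mouse hearts by enzymatic isolation and were grown on collagen in DMEM with 10% FBS. They carried a control siRNA (si-NC) or 1 of 2 siRNAs against the IAMP gene (si-IAMP-1, si-IAMP-2), and each siRNA was read without a stimulus, with IL-17 (24 h of siRNA, then 24 h of IL-17) and with TGF-β, in 3 libraries per group. The TGF-β libraries were labelled as adult heart fibroblasts, and their dose and time were not given in the labels. The hearts were whole hearts of C57BL/6 mice, 8 weeks old, 4 of genotype Het and 4 of genotype KO, in which CRISPR-Cas9 with 1 sgRNA in fertilized eggs had caused a frameshift in the IAMP gene. The Het littermates, used as the controls, carried 1 mutated allele as well, and wild-type hearts were not analysed here. All samples were labelled as separate replicates, but nothing said whether CF replicates came from separate mice or only from separate wells, so p-values measure the spread between these samples.

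As background, complexes I and II pass electrons from NADH and succinate to coenzyme Q, complex III hands them to cytochrome c and complex IV to oxygen, and complexes I, III and IV pump protons that complex V (ATP synthase) lets back to make ATP. The catalytic cores of complexes I, III and IV and part of the membrane portion of complex V are encoded in mitochondrial DNA, transcribed as long strands that are then processed into separate RNAs, while complex II is wholly nuclear. Several nuclear subunits of complex IV come as paralogs, of which Cox6a2, Cox7a1 and Cox8b are the heart and skeletal muscle forms and Cox6a1, Cox7a2 and Cox8a the forms found in most tissues.

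Sequence and position set limits on what the counts of these genes can tell, so the stretches that matter are shown first. The mitochondrial genes lie so close that some share bases. mt-Atp8 and mt-Atp6, encoding the A6L and a subunits of ATP synthase, overlap by 43 bases on the same strand, chrM:7927-7969 in GRCm38. The shared run is printed because a read inside it fits both genes. Capitals mark the start codon of mt-Atp6.
mt-Atp8/mt-Atp6 overlap: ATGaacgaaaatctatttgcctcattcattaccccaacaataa
mt-Nd4l and mt-Nd4 share 7 bases, and mt-Nd5 and mt-Nd6, which lie on opposite strands, share 14 bases. No strand setting was given for the counting, so reads of mt-Nd6 and reads antisense to it cannot be told apart.

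Promoters were taken from RefSeq (GRCm38.p6, 250 bases before to 50 after the gene's start) for the 68 nuclear members that matched by symbol. The promoters of Cox8a and Cox8b are shown because these paralogs encode the same subunit of complex IV and changed places, Cox8b lying near the floor in CFs and above Cox8a in hearts. The capitals in Cox8a, at chr19:7217567-7217866 on the minus strand, mark the letters ACTTCCGG, the reverse complement of the ETS motif CCGGAAGT. The capitals in Cox8b, at chr7:140900397-140900696 on the minus strand, mark the hypoxia response core ACGTG and its reverse complement CACGT.
Cox8a: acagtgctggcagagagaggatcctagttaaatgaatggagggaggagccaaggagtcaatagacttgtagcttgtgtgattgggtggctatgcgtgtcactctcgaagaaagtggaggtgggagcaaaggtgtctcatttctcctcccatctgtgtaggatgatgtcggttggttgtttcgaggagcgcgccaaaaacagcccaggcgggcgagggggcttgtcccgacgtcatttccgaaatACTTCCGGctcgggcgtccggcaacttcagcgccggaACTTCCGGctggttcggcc
Cox8b: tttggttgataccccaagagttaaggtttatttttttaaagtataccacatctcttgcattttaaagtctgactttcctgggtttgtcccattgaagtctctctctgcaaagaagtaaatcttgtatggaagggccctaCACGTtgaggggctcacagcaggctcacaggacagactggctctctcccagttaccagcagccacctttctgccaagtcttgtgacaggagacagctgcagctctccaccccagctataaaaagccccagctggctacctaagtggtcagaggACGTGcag
The Cox8a window held 19 CpG dinucleotides and the Cox8b window 2. The median was 19 over the matched members and 8 over all 27025 genes with a promoter, taking the highest count per gene. Sdhb and Sdhd are shown because they encode subunits of the same complex and moved apart with si-IAMP-2. In Sdhb, at chr4:140961021-140961320 on the plus strand, the capitals mark GCATGCGC, the reverse complement of the NRF1 motif GCGCATGC. In Sdhd, at chr9:50603800-50604099 on the minus strand, they mark TGACCTTG, the reverse complement of the ERR motif CAAGGTCA.
Sdhb: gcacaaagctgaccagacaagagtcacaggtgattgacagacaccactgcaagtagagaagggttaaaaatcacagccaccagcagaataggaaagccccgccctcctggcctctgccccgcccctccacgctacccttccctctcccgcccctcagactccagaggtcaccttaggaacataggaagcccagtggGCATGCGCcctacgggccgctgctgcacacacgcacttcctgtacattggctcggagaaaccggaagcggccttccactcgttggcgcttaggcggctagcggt
Sdhd: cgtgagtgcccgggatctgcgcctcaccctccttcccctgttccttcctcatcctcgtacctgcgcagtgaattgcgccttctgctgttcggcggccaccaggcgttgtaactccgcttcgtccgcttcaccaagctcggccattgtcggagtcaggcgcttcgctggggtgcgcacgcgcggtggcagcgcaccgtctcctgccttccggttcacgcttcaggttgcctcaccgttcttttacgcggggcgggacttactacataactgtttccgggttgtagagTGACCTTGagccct
Searched on both strands, the NRF1 letters stood in 14.7% of the member promoters and 3.05% of all promoters. The shares were 14.7% and 3.19% for the YY1 letters AAGATGGC, 5.88% and 1.76% for the ERR letters, 7.35% and 4.31% for the ETS letters and 25.0% and 21.8% for ACGTG. No pair of these motifs was required to be apart, and a match describes letters, not binding.

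Totals ran from 104139670 to 119232309 estimated counts per CF library and from 23497027 to 23857313 counts per heart library, which limits precision by counting little for all but the lowest members. The knocked-down transcript 4930523C07Rik itself stood at 23.5 ± 2.03 CPM (counts as a part of the TMM-scaled library total, SD, n = 3) in untreated si-NC CFs, 3.00 ± 0.498 with si-IAMP-1 and 1.82 ± 0.0600 with si-IAMP-2. With IL-17 the log2 fold changes were -2.85 and -3.44, and with TGF-β -2.23 and -2.65. Het and KO hearts held 17.0 ± 1.25 and 16.0 ± 0.975 CPM (n = 4), and the level of a transcript is no check of a frameshift. All 10 fibroblast markers were above 1 CPM in every CF group. Of 10 cardiomyocyte markers, which sum to 90.6 to 98.5 CPM in untreated si-NC CFs, 42.0 to 47.0 with si-IAMP-1 and 27.2 to 32.5 with si-IAMP-2, 1 was above 1 CPM, and they sum to 48700 to 52990 CPM in hearts. In TGF-β CFs the same sum was 3.54 to 6.11 CPM. Other marker sums moved with the siRNAs as well. In untreated CFs the fibroblast markers summed to 21150 to 21500 CPM with si-NC, 29550 to 30510 with si-IAMP-1 and 20310 to 20730 with si-IAMP-2. The 6 mural markers, of which 4 were above 1 CPM, summed to 102.5 to 116 CPM with si-NC, 65.9 to 72.5 with si-IAMP-1 and 52.9 to 64.9 with si-IAMP-2. The 8 macrophage markers, 7 of them above 1 CPM, summed to 60.2 to 65 CPM with si-NC, 60.4 to 64 with si-IAMP-1 and 76.4 to 79.7 with si-IAMP-2. The 7 endothelial markers, all above 1 CPM, lay between 65.1 and 76.5 CPM in the 3 groups. With IL-17 the fibroblast sum was 21290 to 21450, 27800 to 29050 and 20430 to 21380 CPM and the mural sum was 152 to 158, 99.5 to 104 and 75.3 to 82.8 CPM with si-NC, si-IAMP-1 and si-IAMP-2. The part of these differences in the results below was not tested. Among the hearts Het replicate 4 stood apart, as the lowest of the 4 Het libraries for 90 of the 100 members with counts there.

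Levels were compared between genes per kilobase of exon, counting all exons of a gene once. In untreated si-NC CFs the 13 mitochondrial genes had a median of 1740 CPM per kb and the 89 nuclear genes a median of 25.5, and in Het hearts the medians were 16900 and 193. The tables were made separately and hold different kinds of counts, so the order within a sample type is described and no level was tested between them. mt-Co1, the catalytic core of complex IV, came first in both, at 5370 ± 174 CPM per kb in CFs (n = 3) and 44100 ± 3250 in Het hearts (n = 4). In CFs mt-Nd1 (2720), mt-Cytb (2500), mt-Co2 (2110) and mt-Atp6 (2070) followed, and the libraries of mt-Co2 and mt-Atp6 overlapped. In hearts mt-Cytb (29800), mt-Nd1 (24000) and mt-Atp6 (23500) were next. mt-Nd3 was the lowest mitochondrial gene in CFs, at 302 CPM per kb, and mt-Atp8 the lowest in Het hearts, at 3060 ± 681.

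Among nuclear genes in CFs Atp5b, the catalytic β subunit of ATP synthase, came first at 211 CPM per kb, also when counts were divided by the longest transcript. Atp5a1 (α), at 158, was next, but came after Cox4i1 over the longest transcript. In Het hearts Cox6a2 (2460) came first by either length. Cox8b (1340) and Cox7a1 (1100) stood above Atp5b (1010) and Atp5a1 (950), but the libraries of Cox7a1 (887 to 1240) overlapped those of both, and over the longest transcript Atp5b came before Cox8b and Cox7a1. In CFs the muscle forms Cox6a2, Cox8b and Cox7a1 were near the floor, at 0.159, 0.0382 and 0.385 CPM per kb. The median of the nuclear subunits in CFs was lowest for complex I, at 20.4 CPM per kb, and 35.8 for complex II, 42.4 for III, 35.2 for IV and 30 for V. The order in Het hearts was the same at the bottom, with 136 for complex I, 229 for II, 312 for III, 262 for IV and 203 for V. Over the longest transcript complex I stayed lowest in both, at 29.5 and 204, while complex V came first in CFs, at 69.7.

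The paralog pairs of complex IV make the contrast between the sample types plain. Cox6a2 read between 1420 and 1900 CPM in the 8 hearts and no more than 0.275 CPM in any untreated CF library. Cox8b stood at 546, 476, 496 and 412 CPM in Het hearts and 455, 488, 488 and 474 in KO hearts. Cox7a1 stood at 605, 607, 661 and 475 CPM in Het and 589.9, 578, 565 and 602 in KO hearts. The widespread forms were present in both sample types, with Cox8a at 159.6, 157, 159 and 137 CPM in Het hearts and 79.1, 77.1 and 80.7 in untreated si-NC CFs. The hearts of both genotypes held muscle and widespread forms side by side, and the CFs held the widespread forms. Whole hearts also held all 10 cardiomyocyte and all 10 fibroblast markers, so a level there is a mixture of cell types, and fewer cells of a type cannot be told apart from less RNA per cell.

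**Figure D1:**
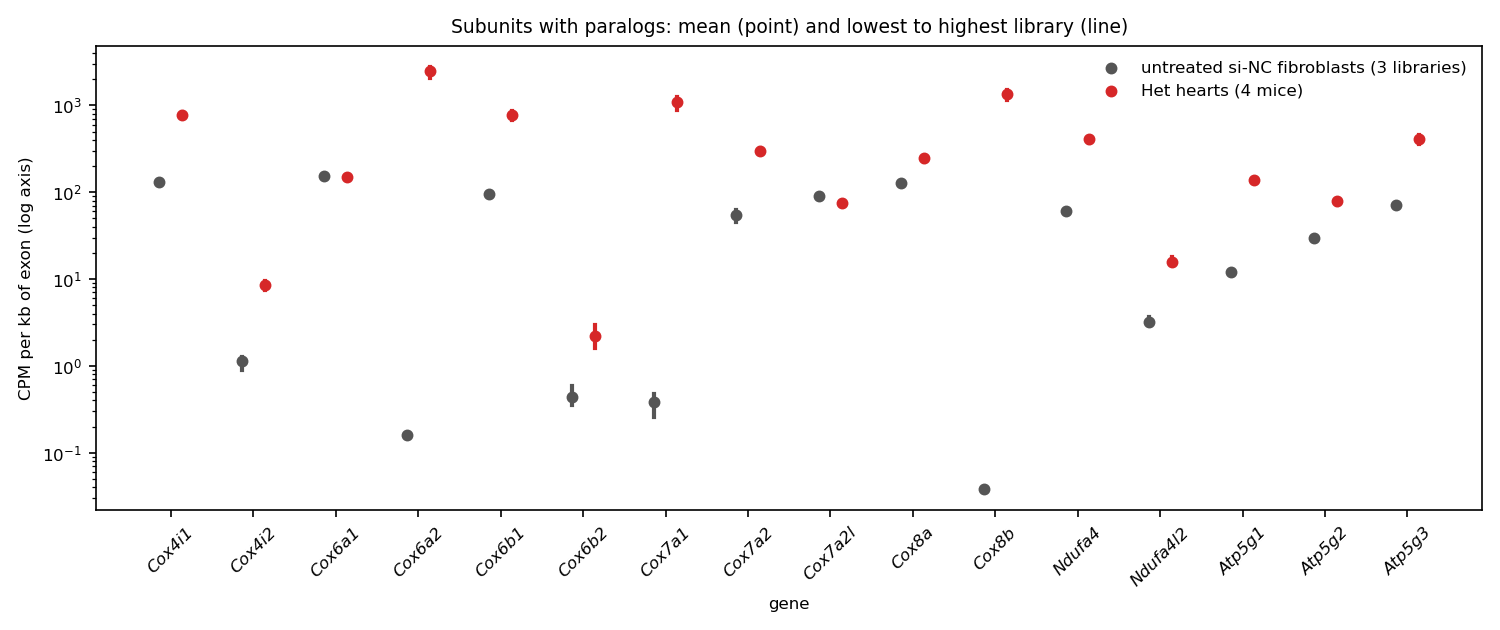
Level of 16 paralogous subunits of complex IV, Ndufa4 and ATP synthase subunit c genes in untreated si-NC CFs (n = 3) and Het hearts (n = 4), as CPM per kb of exon on a log axis. Points are means and lines run from the lowest to the highest library. Cox6a2, Cox7a1 and Cox8b lie below 1 CPM per kb in CFs and above 1000 in hearts.

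The first comparison asked how loss of IAMP changes CFs at rest. In untreated CFs the 2 siRNAs moved these genes differently. With si-IAMP-1, 3 of the 96 tested members were higher and 44 lower than with si-NC, with a median log2 fold change of -0.12 over the members and -0.02 over all genes. Over all genes tested, 19.5% were called higher and 20.4% lower. With si-IAMP-2, 28 members were higher and 18 lower, with a median of 0.04, against 24.4% higher and 25% lower over all genes. Genes were called where the p of edgeR's quasi-likelihood fit, after Benjamini-Hochberg adjustment over every gene fitted, did not exceed 0.05. Most changes were small. Past a 1.5-fold change in either direction there were 2 members with si-IAMP-1 and 4 with si-IAMP-2, where 12.1% and 21.1% of all genes passed. The split depended on the scaling: with total counts in place of TMM factors, which lower the median of all genes by 0.10 and 0.07 on the log2 scale, it was 1 higher and 67 lower for si-IAMP-1 and 21 and 25 for si-IAMP-2.

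**Figure D2:**
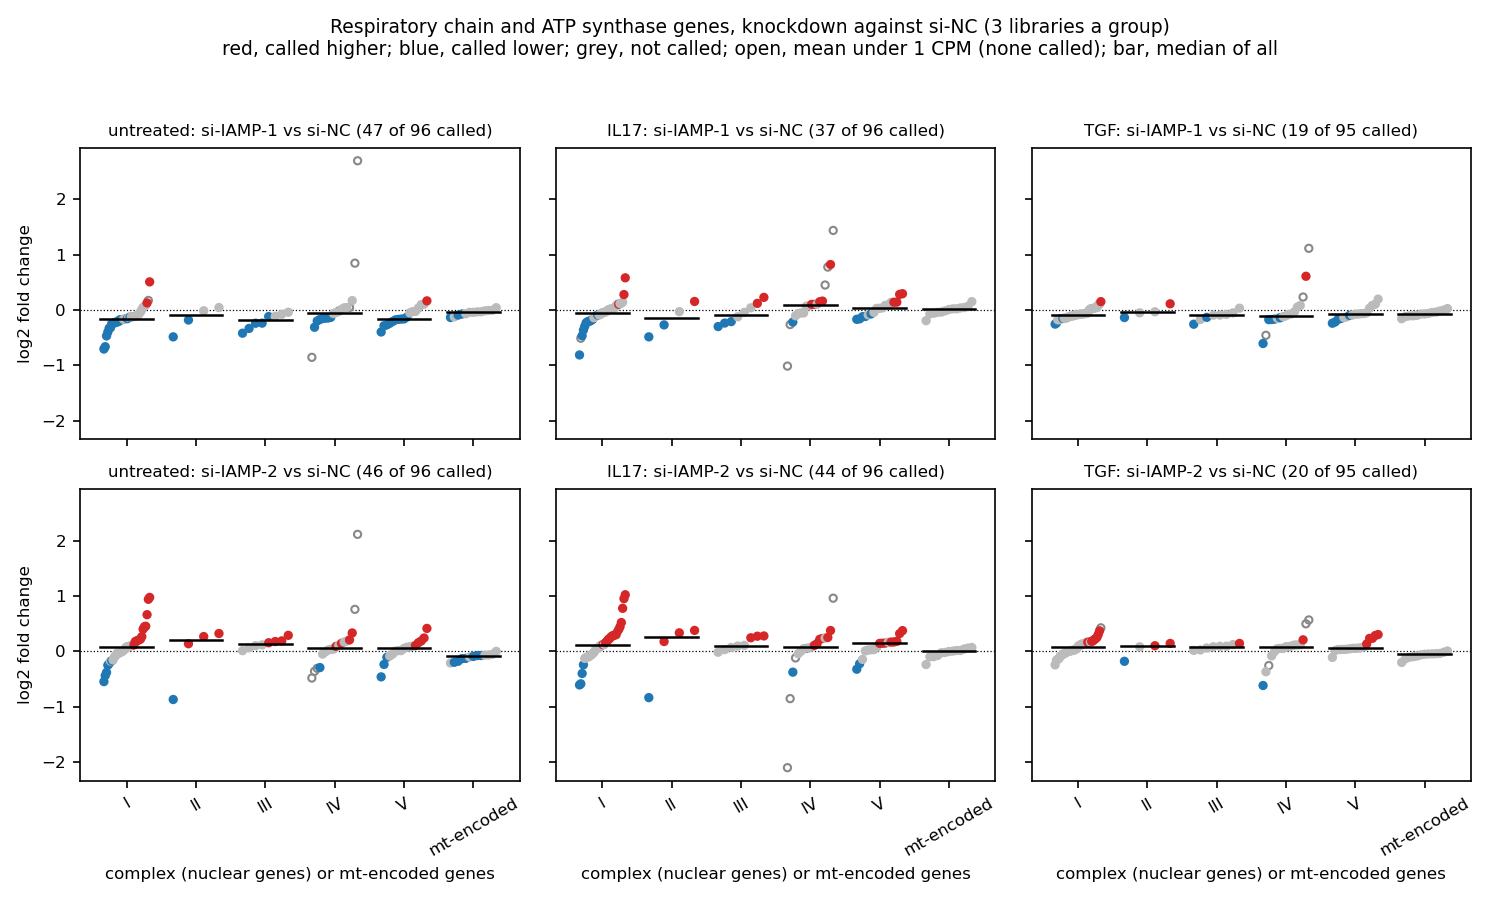
Log2 fold change of each tested member in 6 comparisons of an siRNA against IAMP with si-NC, by complex for nuclear genes and together for the mitochondrially encoded ones. Red points are called higher, blue lower, grey not called, open points are below a mean of 1 CPM and bars are medians. In untreated CFs 44 members lie in blue with si-IAMP-1 and 28 in red with si-IAMP-2.

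Within complex I some subunits rose with si-IAMP-2. Ndufa6, an accessory subunit of the LYR motif family, read 22, 20.3 and 22.6 CPM with si-NC, 21.2, 24.1 and 21.7 with si-IAMP-1 and 43.5, 40.8 and 40.5 with si-IAMP-2. Only the si-IAMP-2 libraries stood apart from si-NC, with 0.94 ± 0.0606 SE, adjusted p = 9.18e-10, and si-IAMP-1 overlapped si-NC (0.05, adjusted p = 0.625). Ndufs7, the core subunit with the last iron-sulfur cluster before coenzyme Q, read 19.2, 20.4 and 21.4 CPM with si-NC, 17.8, 18.2 and 18 with si-IAMP-1 and 32.4, 32.7 and 31.7 with si-IAMP-2. It was called lower with si-IAMP-1 (-0.18 ± 0.0543 SE, adjusted p = 0.0143) and higher with si-IAMP-2 (0.67 ± 0.0539 SE, adjusted p = 1.7e-08).

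Other subunits of complex I fell. Ndufa5, an accessory subunit of the matrix arm, read 17.2, 18.9 and 17.2 CPM with si-NC, 9.85, 11.3 and 11.5 with si-IAMP-1 and 13.5, 13.8 and 12.1 with si-IAMP-2. All 6 knockdown libraries lay below all si-NC libraries, with -0.71 ± 0.0798 SE, adjusted p = 1.82e-06 and -0.44 ± 0.0792 SE, adjusted p = 0.000181. Ndufb3, of the membrane arm, read 22, 23.1 and 22.1 CPM with si-NC, 12.6, 14.4 and 15.4 with si-IAMP-1 and 25.1, 24.9 and 22.8 with si-IAMP-2. It was low with si-IAMP-1 alone (-0.67 ± 0.0709 SE, adjusted p = 9.54e-07) and overlapped si-NC with si-IAMP-2 (0.11, adjusted p = 0.206). Ndufc2, also of the membrane arm, had the same shape, at -0.47 with si-IAMP-1 and 0.09, adjusted p = 0.157 with si-IAMP-2. Ndufb2 fell by more with si-IAMP-2, at -0.54, than with si-IAMP-1, at -0.24, and the difference between the siRNAs was itself called (-0.30 ± 0.074 SE, adjusted p = 0.00296). Of the NADH-binding and core subunits, Ndufv1 fell with both (-0.18 and -0.25) and Ndufs1 rose with si-IAMP-2 (0.45). Ndufa9 was called higher with both, at 0.13 and 0.46, the first of which lost its call in 11 of 18 alternatives. Over the 36 nuclear subunits tested, 2 were higher and 17 lower with si-IAMP-1 and 12 higher and 6 lower with si-IAMP-2. Of all genes, 19.5% were higher and 20.4% lower with si-IAMP-1, and 24.4% and 25% with si-IAMP-2.

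Complex II, succinate dehydrogenase, split among its 4 subunits. Sdhb, the iron-sulfur subunit, read 42.9, 41.2 and 44.5 CPM with si-NC, 30.6, 30.6 and 30.6 with si-IAMP-1 and 53.6, 54.1 and 53.4 with si-IAMP-2. The si-IAMP-1 libraries were all below and the si-IAMP-2 libraries all above si-NC, with -0.49 ± 0.0431 SE, adjusted p = 1.04e-07 and 0.33 ± 0.0427 SE, adjusted p = 5.76e-06. Sdhd, a membrane anchor, read 74.4, 72.7 and 72.7 CPM with si-NC, 71.7, 72.7 and 72.9 with si-IAMP-1 and 41.1, 39.5 and 39.9 with si-IAMP-2. It was low with si-IAMP-2 (-0.87 ± 0.0362 SE, adjusted p = 3.83e-12) while si-IAMP-1 overlapped si-NC (-0.02, adjusted p = 0.784). Sdhc, the other anchor, read 73.2, 69 and 71.7 CPM with si-NC, 74.4, 74 and 71.7 with si-IAMP-1 and 83.8, 86.7 and 87.5 with si-IAMP-2, and rose with si-IAMP-2 by 0.27. Sdha, the flavoprotein, moved in opposite directions, at -0.18 and 0.14. With si-IAMP-2, 3 of the 4 subunits rose and the remaining one, Sdhd, fell.

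**Figure D3:**
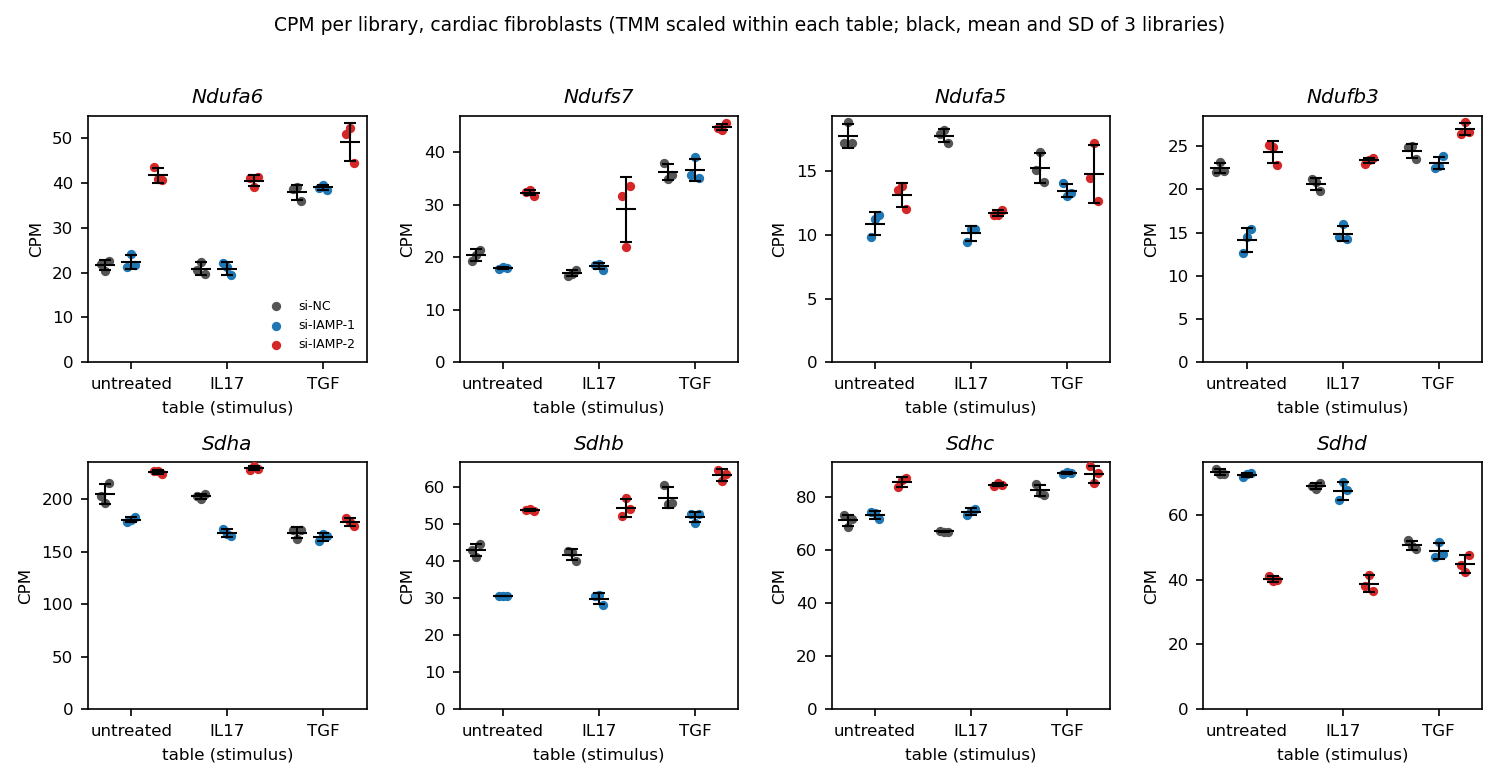
CPM per library of 8 members of complexes I and II in the 27 CF libraries, by stimulus and siRNA. Points are libraries and bars are the mean ± SD (n = 3). Sdhd lies between 36.5 and 41.6 CPM in untreated and IL-17 CFs with si-IAMP-2 and between 64.6 and 74.4 in the other libraries of those tables, and the TGF-β libraries lie closer together.

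In complex III, 5 of the 8 nuclear members fell and 0 rose with si-IAMP-1. With si-IAMP-2, 4 rose and 0 fell, and DESeq2 gave the same counts for both siRNAs. Of all genes, 20.4% fell and 19.5% rose with si-IAMP-1, and 24.4% rose and 25% fell with si-IAMP-2. Uqcrc1, a core protein of complex III, read 129.6, 122 and 129 CPM with si-NC, 93, 93.4 and 97.6 with si-IAMP-1 and 148, 139 and 144 with si-IAMP-2. The 3 groups did not overlap, with -0.42 ± 0.0356 SE, adjusted p = 5.88e-08 and 0.18 ± 0.0354 SE, adjusted p = 0.000371. Uqcrfs1, the Rieske iron-sulfur protein, moved less, at -0.12 and 0.16. The first of these was lost in 7 of 18 alternatives.

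Of the 18 tested nuclear genes of complex IV, 0 were called higher and 7 lower for si-IAMP-1 and 4 higher and 1 lower for si-IAMP-2. The shares of all genes were 19.5% and 20.4% for si-IAMP-1, and 24.4% and 25% for si-IAMP-2. Cox4i1, a widespread regulatory subunit, was at 0.04, adjusted p = 0.602 with si-IAMP-1 and 0.15 with si-IAMP-2. Cox6a1 was lower at -0.14 with si-IAMP-1 and higher at 0.09 with si-IAMP-2, a call lost in 10 of 18 alternatives. The muscle forms Cox6a2, Cox7a1 and Cox8b, and also Cox4i2 and Cox6b2, stayed below a mean of 1 CPM, and none of them was called.

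In ATP synthase the catalytic pair followed the sign of most nuclear members. Atp5b read 908, 868 and 909.5 CPM with si-NC, 767, 776 and 780.3 with si-IAMP-1 and 970.4, 970.5 and 954 with si-IAMP-2. The groups did not overlap, with -0.21 ± 0.0275 SE, adjusted p = 9.98e-06 and 0.11 ± 0.0275 SE, adjusted p = 0.00332, and Atp5a1 gave -0.13 and 0.16. Atp5l, the g subunit at the dimer interface, rose with both, at 0.16 and 0.42, and Atp5j, the F6 coupling factor, fell with both, at -0.17 and -0.46. The 3 genes that encode the same subunit c of the rotor ring did not move together. Atp5g1 and Atp5g3 fell with si-IAMP-1 (-0.27 and -0.29), and Atp5g2 fell with si-IAMP-2 (-0.23). Of 17 nuclear genes of complex V, 1 was higher and 10 lower with si-IAMP-1, and 5 were higher and 3 lower with si-IAMP-2. The shares of all genes were 19.5% and 20.4% with si-IAMP-1, and 24.4% and 25% with si-IAMP-2.

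The mitochondrially encoded genes changed little. With si-IAMP-1, 3 of 13 fell, where 20.4% of all genes did. The log2 fold changes were -0.14 for mt-Nd2, -0.09 for mt-Cytb and -0.07 for mt-Co1. With si-IAMP-2, 7 of 13 fell, where 25% of all genes did. The largest were mt-Nd2 at -0.20 and mt-Nd5 at -0.18, and mt-Nd1, mt-Nd4, mt-Co1, mt-Co3 and mt-Cytb lay between -0.13 and -0.07. mt-Co1 lost its call for each siRNA in 11 of 18 alternatives and mt-Nd1 did so for si-IAMP-2. mt-Nd2 lost its call in 6 for si-IAMP-1 and mt-Nd5 in 5 for si-IAMP-2. Summed over the 13 genes, CPM was 24090 ± 678 with si-NC, 23220 ± 491 with si-IAMP-1 and 22530 ± 432 with si-IAMP-2. The nuclear sum was 5871 ± 136, 5344 ± 73.9 and 6343 ± 23.5 in the same order, a log2 ratio to si-NC of -0.14 and 0.11.

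Set against each other within the untreated fit, si-IAMP-2 was above si-IAMP-1 for 46 members and below for 7, where 22.7% and 22.8% of all genes were called, with a median of 0.14. No si-NC library stands on either side of this direct comparison, though the si-NC libraries share its fit and estimate of the spread. Ndufa6 (0.90), Ndufs7 (0.84), Sdhb (0.81) and Ndufb3 (0.78) led the higher ones. Sdhd (-0.85), Ndufb2 (-0.30), Atp5j (-0.29) and Atp5g2 (-0.27) led the lower ones. By complex, the higher and lower counts of nuclear genes were 19 and 2 for I, 3 and 1 for II, 7 and 0 for III, 7 and 0 for IV and 10 and 3 for V.

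The second comparison asked the same of CFs under IL-17, an inflammatory cytokine. With si-IAMP-1, 15 members were higher and 22 lower than with si-NC, where 20.3% and 21.9% of all genes were called, and the median was -0.03. With si-IAMP-2, 36 were higher and 8 lower, where 25% and 25.6% of all genes were called, and the median was 0.07. Past 1.5-fold there were 2 members with si-IAMP-1 and 5 with si-IAMP-2, against 13.5% and 21.7% of all genes. Total-count scaling gave 5 higher and 46 lower for si-IAMP-1, where it lowers the median of all genes by 0.11 on the log2 scale, and 28 and 16 for si-IAMP-2.

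Under IL-17 Ndufa6 was at 0.00, adjusted p = 0.998 with si-IAMP-1 and 0.95 ± 0.0616 SE, adjusted p = 6.09e-10 with si-IAMP-2. Ndufs7 read 31.6, 22 and 33.6 CPM with si-IAMP-2, of which replicate 2 was the lowest, against 16.5, 16.8 and 17.5 with si-NC. All 3 still lay above si-NC, with 0.78 ± 0.132 SE, adjusted p = 0.000565. Ndufs1 rose with si-IAMP-2 by 0.52 and Ndufb6 fell, at -0.40. Ndufa5 fell with both siRNAs, at -0.81 and -0.60. Ndufb3 was lower with si-IAMP-1 (-0.47) and higher with si-IAMP-2 (0.18). Of the 36 nuclear genes of complex I, 3 rose and 11 fell with si-IAMP-1, and 16 rose and 4 fell with si-IAMP-2. The shares of all genes were 20.3% and 21.9% with si-IAMP-1, and 25% and 25.6% with si-IAMP-2.

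Complex II kept its split. Sdhb read 42.5, 42.5 and 40.04 CPM with si-NC, 30.4, 30.7 and 28.1 with si-IAMP-1 and 52.2, 56.9 and 53.9 with si-IAMP-2. Sdhd read 69, 68.2 and 69.8 CPM with si-NC, 64.6, 70.1 and 67.9 with si-IAMP-1 and 38.2, 41.6 and 36.5 with si-IAMP-2. Sdhb was below si-NC in every si-IAMP-1 library and above it in every si-IAMP-2 library (-0.49 and 0.38), and Sdhd was low with si-IAMP-2 (-0.83 ± 0.0465 SE, adjusted p = 8.97e-11).

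Ndufa4l2, a paralog of Ndufa4 known to be induced by hypoxia, read 2.27, 2.69 and 2.76 CPM with si-NC, 4.38, 4.81 and 4.43 with si-IAMP-1 and 3.25, 2.96 and 2.92 with si-IAMP-2. The si-IAMP-1 libraries stood above all others (0.82 ± 0.127 SE, adjusted p = 4.71e-05), and si-IAMP-2 was at 0.24, adjusted p = 0.131. In untreated CFs si-IAMP-1 had 0.17, adjusted p = 0.494. Atp5e, the ε subunit, rose with si-IAMP-1 (0.29) and Atp5l rose with both (0.28 and 0.38). Atp5b fell with si-IAMP-1 (-0.17) and rose with si-IAMP-2 (0.15), and so did Uqcrc1 (-0.30 and 0.25). Cox4i1 and Cox6a1 rose with si-IAMP-1 by 0.10 and 0.10, calls whose sign turned under total-count scaling. None of the 13 mitochondrial genes was called for either siRNA by edgeR or by DESeq2, and 0 had an unadjusted p under 0.05 in edgeR. Between the siRNAs, si-IAMP-2 was higher for 39 members and lower for 7, where 23.1% of all genes were called in each direction, led by Ndufa6 (0.95), Sdhb (0.87) and, lower, Sdhd (-0.80).

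The third comparison was made under TGF-β, a cytokine that turns fibroblasts into myofibroblasts. With si-IAMP-1, 3 were higher and 16 lower, where 11.7% and 11.4% of all genes were called, and the median was -0.08. With si-IAMP-2, 18 were higher and 2 lower, where 15.1% and 14.8% of all genes were called, and the median was 0.06. Past 1.5-fold there were 2 members for si-IAMP-1 and 1 for si-IAMP-2, where 4.36% and 7.51% of all genes passed. These counts moved with single libraries. The 16 lower calls became 8 without si-NC replicate 1 and 9 without si-IAMP-1 replicate 2, and the 3 higher calls became 1 without si-NC replicate 2 or 3 or si-IAMP-1 replicate 2 or 3. The 18 higher calls became 9 without si-NC replicate 3 and 11 without si-IAMP-2 replicate 2, and the 2 lower calls became 1 without si-NC replicate 1 and 6 without si-NC replicate 3. Total-count scaling gave 1 higher and 28 lower for si-IAMP-1 and 10 and 10 for si-IAMP-2.

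Ndufa6 read 38.6, 39.1 and 35.9 CPM with si-NC, 38.9, 39.5 and 38.5 with si-IAMP-1 and 50.8, 52.1 and 44.3 with si-IAMP-2 and was high with si-IAMP-2 (0.37 ± 0.0597 SE, adjusted p = 0.000112). Ndufs7 rose with si-IAMP-2 too (0.31), as did Atp5md (0.31) and Atp5k (0.29), small membrane subunits of ATP synthase, the last of which lost its call in 11 of 18 alternatives. Sdhd read 52.2, 50.4 and 49.5 CPM with si-NC and 44.4, 42.4 and 47.8 with si-IAMP-2, the latter all lower (-0.18 ± 0.0541 SE, adjusted p = 0.0194). Sdhb fell with si-IAMP-1 (-0.14) and rose with si-IAMP-2 (0.15), and each of these calls was lost in 6 of 18 alternatives, as that of Sdhd was in 3.

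Uqcrc1 (-0.26), Ndufs4 (-0.26), a complex I subunit needed for its last assembly steps, and Atp5g1 (-0.24) fell with si-IAMP-1. Cox6b2, a testis form of Cox6b1, read 5.38, 6.33 and 4.89 CPM with si-NC, 3.54, 3.96 and 3.4 with si-IAMP-1 and 3.81, 3.17 and 3.86 with si-IAMP-2. Both knockdowns lay below si-NC, with -0.61 ± 0.13 SE, adjusted p = 0.00225 and -0.61 ± 0.13 SE, adjusted p = 0.0015. Ndufa4l2 read 4.09, 4.56 and 3.67 CPM with si-NC, 5.27, 7.12 and 6.37 with si-IAMP-1 and 3.56, 3.17 and 2.82 with si-IAMP-2, and rose with si-IAMP-1 (0.61 ± 0.136 SE, adjusted p = 0.00312). None of the 13 mitochondrial genes was called by edgeR. For si-IAMP-1, 0 had an unadjusted p under 0.05 and DESeq2 called 0, and for si-IAMP-2 both numbers were 1. Between the siRNAs, si-IAMP-2 was higher for 41 members and lower for 1, Ndufa4l2 (-0.97), where 12% of all genes were called in each direction. Atp5md (0.37), Uqcrc1 (0.34), Ndufa6 (0.33) and Ndufv2 (0.33) led the higher ones. In each of the 3 stimulus settings both knockdowns were set against the same si-NC libraries, so their changes from si-NC are not independent of each other.

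The stimuli themselves were compared in si-NC CFs, each in 1 fit over the 18 libraries of the stimulated and the untreated table. Each stimulus has its own table, so stimulus and table cannot be told apart. With IL-17, 0 members were called higher and 15 lower, where 6.61% and 6.96% of all genes were called, with a median of -0.07. None of the 15 reached a 1.5-fold change, which 3.08% of all genes passed. At an unadjusted p under 0.05 there were 31 members, all lower, where 23.6% of all genes lay below that value in either direction. DESeq2 called 0 higher and 16 lower. The largest were Ndufa4l2 (-0.46), Ndufv3 (-0.26), Ndufc1 (-0.24) and Ndufb5 (-0.16). Ndufa4l2 and Ndufb5 each lost the call when 1 library was dropped in 14 of the fits. Cox8a (-0.14) and Cox6a1 (-0.13) were lower by less and lost their calls in 7 and 4 of 27 alternatives. The count became 5 without si-NC replicate 1 or 3, and 7 and 5 without IL-17 si-NC replicates 1 and 3. By complex the lower calls were 6 in I, 4 in IV, 5 in V, and 0 in II, III and the mitochondrial genes, where an unadjusted p under 0.05 was found for 1, 1 and 2 genes and DESeq2 called 0, 0 and 1.

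With TGF-β, 51 members were higher and 24 lower, where 29.3% and 28% of all genes were called, and 28 passed a 1.5-fold change, against 34.9% of all genes. The median was 0.19, and 0.03 over all genes. Of the 13 mitochondrial genes 11 were higher, 0 lower, with a median of 0.47, and of the 83 tested nuclear genes 40 were higher and 24 lower, with a median of 0.14. mt-Nd6, the complex I subunit encoded on the other strand, read 319, 246 and 274 CPM in untreated and 902, 871 and 772 in TGF-β CFs. The groups lay far apart (1.6 ± 0.128 SE, adjusted p = 9.69e-08). Reads antisense to mt-Nd6 cannot be told apart from its own, as given above, so this rise may not be of mt-Nd6 RNA alone. mt-Atp6 read 1443, 1398 and 1421 CPM untreated and 2724, 2576 and 2454 with TGF-β, a rise of 0.86, and mt-Atp8, beside it, rose by 0.80. mt-Co2 (0.78), mt-Nd2 (0.75) and mt-Nd1 (0.65) also passed 1.5-fold. mt-Nd4 (0.47), mt-Co3 (0.43), mt-Nd3 (0.40), mt-Co1 (0.26) and mt-Nd5 (0.22) rose by less. mt-Cytb, the complex III core, read 2868, 2811 and 2955 CPM in untreated and 3098, 2933 and 2856 in TGF-β CFs. Its groups overlapped (0.04, adjusted p = 0.57), and mt-Nd4l had 0.12, adjusted p = 0.354. The mitochondrial sum was 24230 ± 663 CPM untreated and 32840 ± 1410 with TGF-β, a log2 ratio of 0.44.

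**Figure D4:**
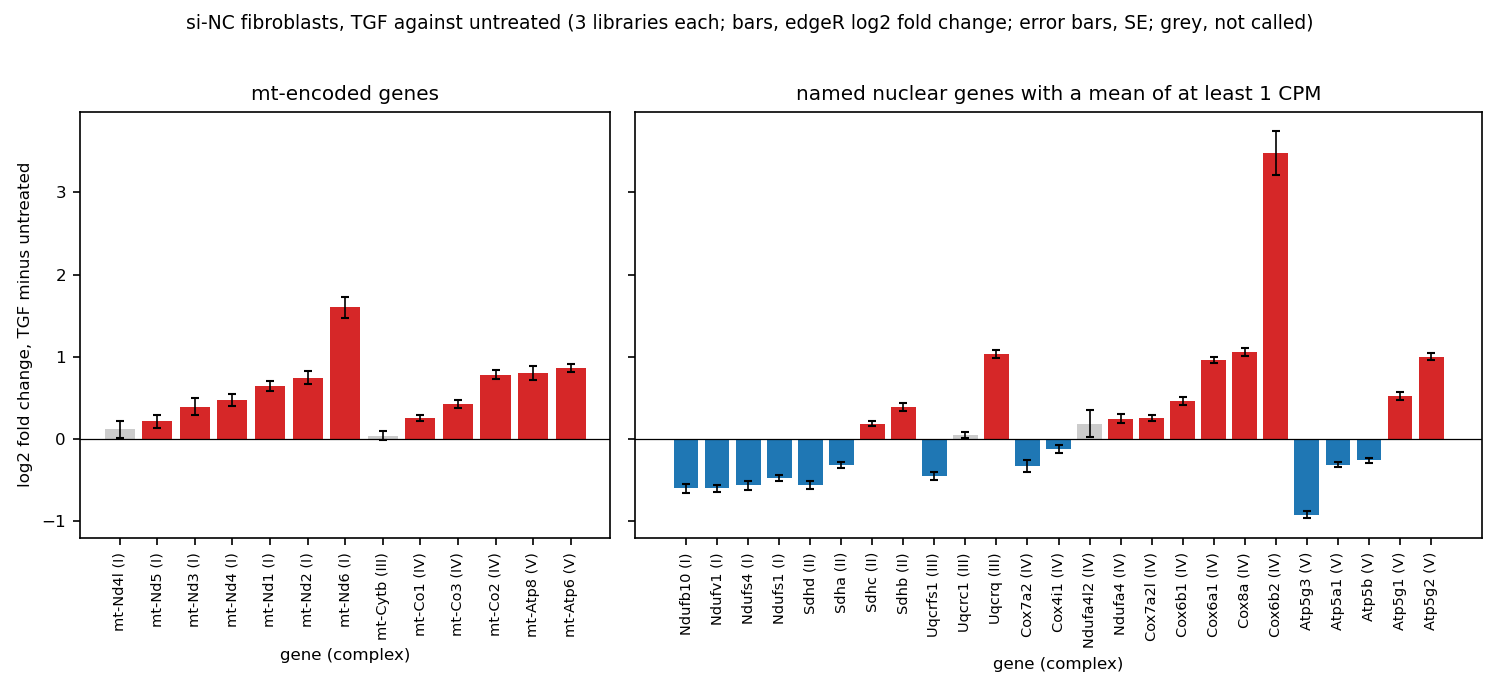
Log2 fold change with its SE between TGF-β and untreated si-NC CFs (n = 3 each) for the 13 mitochondrially encoded genes and the named nuclear members of at least 1 CPM. mt-Nd6 lies at 1.6 and mt-Cytb at 0.04, and the subunit c genes Atp5g2 and Atp5g3 lie on opposite sides of 0. Reads antisense to mt-Nd6 cannot be told apart from its own.

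Among nuclear genes the paralogs of ATP synthase subunit c moved apart. Atp5g2 read 50.2, 49.8 and 51.7 CPM in untreated and 108, 99.1 and 96.5 in TGF-β CFs, and Atp5g1 60.7, 59 and 60.8 CPM untreated and 89.3, 90.02 and 80.2 with TGF-β. Atp5g3, from the same family, read 160, 152 and 160.5 CPM untreated and 84.2, 85.4 and 80.2 with TGF-β. Atp5g2 and Atp5g1 were higher in every TGF-β library (1.00 ± 0.0444 SE, adjusted p = 9.58e-16, and 0.52) and Atp5g3 lower in every one (-0.92 ± 0.0422 SE, adjusted p = 2.05e-15). The catalytic subunits Atp5a1 (-0.31) and Atp5b (-0.26) fell. Over the 17 tested nuclear genes of complex V, 6 rose and 8 fell, where 29.3% and 28% of all genes did. The sum of all nuclear members of complex V went from 2610 to 2392 CPM.

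Complex IV leaned upward, with 10 of its 18 tested nuclear genes higher and 2 lower, where 29.3% and 28% of all genes were. The sum of all nuclear members of complex IV went from 1046 to 1332 CPM. Cox8a read 79.6, 77.7 and 81 CPM untreated and 169.9, 166 and 161 with TGF-β (1.06 ± 0.045 SE, adjusted p = 4.34e-16) and Cox6a1 108, 104 and 109 CPM untreated and 214, 211 and 202 with TGF-β (0.97 ± 0.0369 SE, adjusted p = 5.73e-17). For both genes every TGF-β library was above every untreated one. Cox6b2 read 0.432, 0.395 and 0.646 CPM in untreated and 5.32, 6.27 and 4.84 in TGF-β CFs, a rise of 3.47 from below 1 CPM, and Cox6b1 rose by 0.47. Cox6a2 was called as well, but its untreated libraries were at or near the floor of 18 estimated counts, so no fold is given. Cox7a2 (-0.33) and Cox4i1 (-0.12) fell, the latter call being lost in 6 of 27 alternatives, and Cox7a2l, which links complexes III and IV, rose (0.25).

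Complex I leaned both ways, with 18 of 36 nuclear genes higher and 10 lower, where 29.3% and 28% of all genes were. Ndufv1, which binds NADH, read 67.4, 65.1 and 70.1 CPM in untreated and 45.6, 43.6 and 44.8 in TGF-β CFs and was lower in all of them (-0.60). Ndufb10 (-0.60), Ndufs4 (-0.56) and Ndufs1 (-0.47) also fell. Ndufs7 (0.80) and Ndufa6 (0.78) rose. In complex II Sdhb (0.39) and Sdhc (0.19) rose and Sdhd (-0.56) and Sdha (-0.31) fell. In complex III Uqcrq, a small subunit, read 47.3, 50.6 and 47.9 CPM untreated and 103, 103 and 92.7 with TGF-β, a rise of 1.03, and Uqcrfs1 fell (-0.45). The summed cardiomyocyte markers were 5.43 to 6.11 CPM with TGF-β and 90.6 to 98.5 untreated in these si-NC CFs. The macrophage markers summed to 60.2 to 65 CPM untreated and 157 to 165 with TGF-β, and the endothelial markers to 70.6 to 76.5 and 122 to 124. Of the 8 macrophage markers 7 were above 1 CPM untreated and 5 with TGF-β, so their sum does not stand for every marker. The mural markers summed to 102.5 to 116 CPM untreated and 65.2 to 66.7 with TGF-β, with 4 and 5 of the 6 above 1 CPM. The fibroblast markers summed to 21150 to 21500 and 24770 to 26320 CPM. The part of these sums in the differences was not tested.

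Whether a knockdown acted differently under a stimulus was tested as an interaction, with a call needing an adjusted p no higher than 0.05 and effects at least 1.5-fold apart. For IL-17, 0 of 96 members passed with si-IAMP-1, where 0.448% of all genes did, and 0 with si-IAMP-2, where 0.485% did. DESeq2 called 0 for each too. At an unadjusted p under 0.05 edgeR had 31 members for si-IAMP-1, 30 of them with a positive difference, and 12 for si-IAMP-2. Of all genes, 11.9% and 9.68% lay below that value in either direction. Without the size limit an adjusted p no higher than 0.05 was found for 3 members and 1 member, all positive, where 0.895% of all genes were positive and 1.24% negative for si-IAMP-1 and 0.688% and 1.2% for si-IAMP-2. For TGF-β, 0 passed with si-IAMP-1, where 5.61% of all genes did, and DESeq2 called 0. At an unadjusted p under 0.05 there were 19 members, where 29.2% of all genes lay below that value. Of any size, 10 differences were positive and 2 negative at an adjusted p no higher than 0.05, where 9.19% and 10.4% of all genes were. With si-IAMP-2, 3 of 96 passed, where 11.6% of all genes did, and DESeq2 also called 3. Of any size there were 6 positive and 13 negative, where 14.6% and 15.6% of all genes were. Ndufa6, one of them, rose less under TGF-β, by a difference of -0.59 ± 0.087 SE, adjusted p = 9.36e-06, which fell under the size limit in 11 of 26 alternatives. Sdhd fell less under TGF-β, by a difference of 0.67 ± 0.0637 SE, adjusted p = 1.22e-08. For Ndufa6 and Sdhd the TGF-β si-NC libraries had already moved from untreated in the direction of the si-IAMP-2 effect, as given above. Without 1 of 7 libraries (si-NC replicate 1, si-IAMP-1 replicate 1, 2 or 3, TGF-β si-NC replicate 1 or 2, or TGF-β si-IAMP-2 replicate 3) the 2 negative calls became 1.

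In hearts KO was compared with Het to ask what loss of IAMP does in the organ. None of the 99 tested members was called, and 0% of all genes were, by the edgeR fit used for the CFs. DESeq2 called 0 members, and at an unadjusted p under 0.05 edgeR had 0 members, while 3.6% of all genes tested lay below that value. The median log2 fold change was -0.01, and the members ran from -0.14 (Ndufa11b) to 0.16 (Cox6b2). The lowest p belonged to Ndufs8, a core iron-sulfur subunit of complex I, which read 180.4, 171, 166 and 156 CPM in Het and 159.5, 150.4, 152 and 161 in KO hearts. The genotypes overlapped (-0.11 ± 0.0508 SE, adjusted p = 1). Ndufb7 (-0.10) and Ndufs7 (-0.09) came next, both with an adjusted p of 1. Het and KO values overlapped for each of the 99 members. This was not set against all genes, so it is not a result about the members.

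Sdhd read 275, 275, 272 and 263 CPM in Het and 251, 261, 269.8 and 279 in KO hearts, with -0.03 ± 0.0428 SE, adjusted p = 1. The genotypes overlapped. The nuclear sum was 39150 ± 2290 CPM in Het and 38640 ± 573 in KO hearts, and the mitochondrial sum 243300 ± 20900 and 252200 ± 17900 CPM (SD, n = 4). Without Het replicate 4 the Het sums were 40250 ± 783 and 251700 ± 15300 CPM (n = 3), the median log2 fold change of the members was -0.06 and 0 members were called. The 13 mitochondrial genes took 24.4% of the counts in Het and 25.0% in KO hearts, and 2.5% in untreated si-NC CFs.

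**Figure D5:**
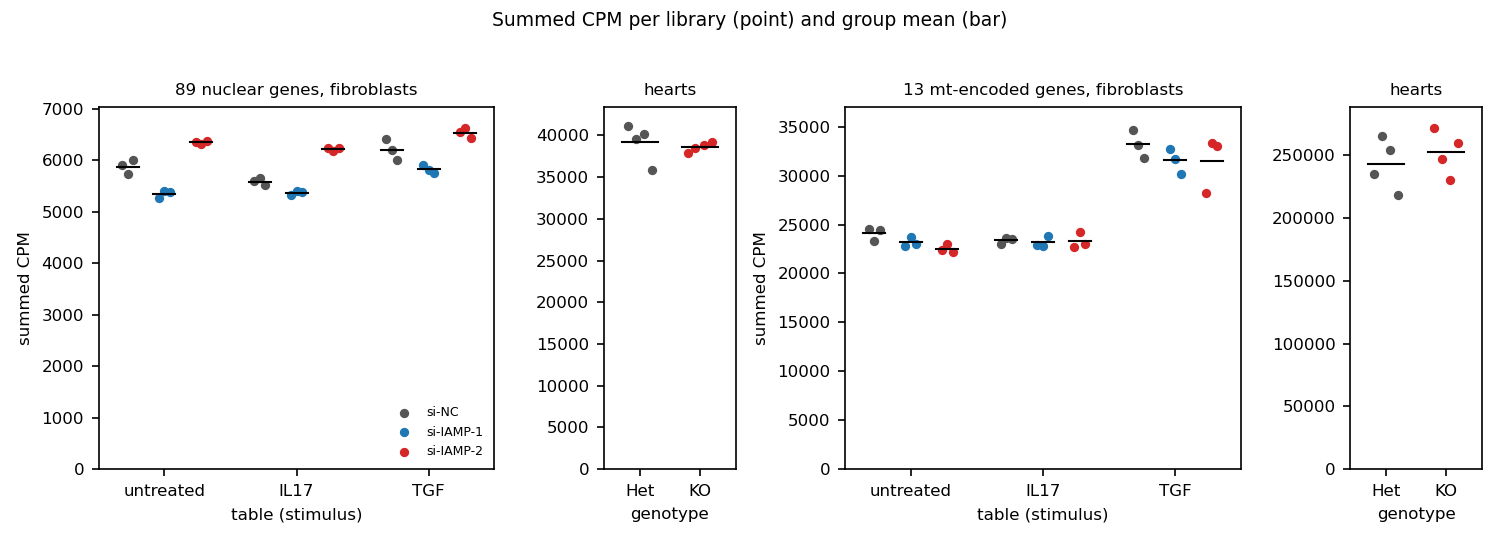
Summed CPM of the 89 nuclear and the 13 mitochondrially encoded members in each library of the CF and heart groups. Points are libraries, and bars are group means. The si-IAMP-1 libraries lie below and the si-IAMP-2 libraries above si-NC in the untreated nuclear sum, and Het and KO hearts overlap in both sums.

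Genes that serve the chain were counted from lists written by function. These lists are not free of subunits. The electron carrier list holds Cyc1, a complex III subunit that the symbol rule did not find. The list of hypoxia-linked switches holds the members Ndufa4l2 and Cox4i2, which are counted there again. The shares of all genes to set these counts against were 19.5% higher and 20.4% lower with si-IAMP-1 and 24.4% and 25% with si-IAMP-2 in untreated CFs, 20.3% and 21.9%, and 25% and 25.6% with IL-17, and 11.7% and 11.4%, and 15.1% and 14.8% with TGF-β. Of 49 tested assembly factors, which build the complexes, 15 rose and 9 fell with si-IAMP-1 in untreated CFs (30.6% and 18.4%), led by Cox11 (-0.98), which delivers copper to complex IV, and Uqcc3 (0.55), of complex III assembly. With si-IAMP-2, 21 rose and 6 fell (42.9% and 12.2%), led by Nubpl (-1.47), which delivers iron-sulfur clusters to complex I, and Uqcc3 (0.96). With IL-17 the counts were 16 and 8 for si-IAMP-1 and 26 and 8 for si-IAMP-2, and with TGF-β 4 and 4, and 6 and 3. Of the 18 genes of the TCA cycle, 5 rose and 7 fell with si-IAMP-1 (27.8% and 38.9%) and 11 rose and 1 fell with si-IAMP-2 (61.1% and 5.56%). The gene that fell was Idh2 (-1.81), mitochondrial isocitrate dehydrogenase, which also fell with si-IAMP-1 (-1.04). With IL-17 they were 5 and 4, and 13 and 1, and with TGF-β 3 and 6, and 4 and 1. Of 14 regulators of mitochondrial biogenesis 3 rose and 3 fell with si-IAMP-1, and 3 rose and 8 fell with si-IAMP-2, among them Gabpb1 (-0.88) and Yy1 (-0.80). Of 23 genes of mitochondrial DNA maintenance and expression 3 rose and 0 fell (13% and 0%), and 5 rose and 2 fell (21.7% and 8.7%). The higher shares of the biogenesis list, 21.4% for each siRNA, were near those of all genes.

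The electron carriers and coenzyme Q genes, 20 tested, had 6 higher and 4 lower with si-IAMP-1 and 9 and 5 with si-IAMP-2, led by Coq4 (0.58) and Coq3 (0.89). Of 10 carriers of adenine nucleotides, phosphate and protons 1 rose and 7 fell with si-IAMP-1, led by Ucp2 (-0.86) and the outer membrane channel Vdac1 (-0.43), and 2 rose and 4 fell with si-IAMP-2. Of 11 genes of the hypoxia-linked switches of respiration, a list that includes Ndufa4l2, 2 rose and 4 fell with si-IAMP-1 and 5 rose and 1 fell with si-IAMP-2, led in both by Bnip3, a mitophagy receptor (0.69 and 1.39). Under TGF-β against untreated si-NC CFs, 22 assembly factors rose and 11 fell (44% and 22%), and 4 TCA cycle genes rose and 9 fell (22.2% and 50%), where 29.3% of all genes rose and 28% fell. The regulators of biogenesis had 3 higher and 7 lower there (21.4% and 50%) and the mitochondrial DNA list 8 and 8 (34.8% each), led by Polg (-1.05), the mitochondrial DNA polymerase, and Lrpprc (-0.89), which stabilises mitochondrial mRNA. In hearts no gene of these lists was called.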

How the data were processed

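Gene expression was measured by RNA-seq in 27 CF libraries (3 siRNAs, each untreated, with IL-17 or with TGF-β, n = 3 per group) and 8 heart libraries (n = 4 per genotype). RNA was extracted with Trizol, and per the study's methods mRNA was selected on oligo(dT) beads. Per the labels and the study's methods, the authors trimmed reads with Cutadapt, checked them with FastQC, aligned them to GRCm38 with HISAT2, quantified them with StringTie and tested them with DESeq2. The deposited CF tables hold estimated counts in whole numbers, in which 1 read pair is worth up to 6, so a floor of 3 read pairs is 18. The deposited heart table holds raw counts per gene, with a floor of 3. The annotation release, the strand setting and the step to whole numbers were not given in the sources used here, and paralogs and pseudogenes that share reads may be split unevenly. The floors cover counting error only.

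From these tables edgeR 4.0.16 (R 4.3.3, limma 3.58.1) was run on all genes of each table with filterByExpr, TMM factors, robust glmQLFit and glmQLFTest, and p-values were adjusted by Benjamini-Hochberg over all genes tested. Each CF table was fitted with its 3 siRNA groups. Stimuli and interactions were fitted over the 18 libraries of a stimulated and the untreated table, and hearts over 8. CPM are scaled by the TMM factors of the fit they belong to. Exon lengths are from GENCODE vM21 (GRCm38), which held 55141 of the 55487 IDs and all 102 members. Alternatives were DESeq2 1.42.0, its size factors, total counts, library sizes without mitochondrially encoded genes, no filter or a minimum of 10 counts in every library, estimated counts divided by 6, only the 2 groups compared, a replicate block and each library left out. On simulated counts with 200 genes changed 2-fold, the untreated si-IAMP-1 fit recovered 81.5% of them among 18931 genes tested and the heart fit 92.5% among 16459. The si-IAMP-1 interaction fits recovered 77.5% (IL-17) and 72.5% (TGF-β). Changes smaller than 2-fold were not simulated. No 2 libraries of a table held identical values.

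Members named with values were the mitochondrially encoded genes, the paralog pairs of complex IV, Ndufa4 and subunit c, Sdha to Sdhd, Uqcrfs1, Uqcrc1, Ndufs1, Ndufv1, Atp5a1 and Atp5b, the 4 largest rises and falls called in each comparison at a mean of at least 1 CPM, the 3 lowest p in hearts and the genes called in an interaction. 1 member that met these rules is not reported here and stays in the counts. The members and lists were chosen with earlier results of these data known. Symbols holding -ps (13 rows) were left out of the members.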

Additional observations from a re-analysis of the deposited data

Results flagged for a closer look

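Among the named members and sums, 106 groups of 4 hearts were searched for a library far from the others, and 6 were found, where chance gives about 1 in 20. The 5 found in Het hearts are all replicate 4, which was lowest of the Het libraries for 90 of 100 members, so they are not independent of each other. Its TMM factor was 1.0537, against 0.9675 to 1.013 in the other Het libraries. There Cox8a stood at 137 CPM with the others at 157 to 160, mt-Co2 at 8400 (others 10300 to 10500), Sdhb at 652 (707 to 716) and Uqcrfs1 at 574 (624 to 631). The nuclear sum of complex V was 13400 CPM there (others 14700 to 15000), and KO replicate 4 had 14600 (others at 14200).

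The si-IAMP-2 effect differed between TGF-β and untreated CFs for 3 members, among them Sdhd by 0.67 and Ndufa6 by -0.59 on the log2 scale (edgeR interaction, n = 3 per group). Over the fits tried the differences ran from 0.65 to 0.75 for Sdhd and -0.63 to -0.50 for Ndufa6.

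Some rows with -ps in the symbol, left out of the members, held counts above the floor in every library of a table. No comparison was made on them, and the symbol alone does not settle whether a row is a pseudogene. Median CPM in the CFs was 12.7 untreated, 12.6 with IL-17 and 13.3 with TGF-β for Ndufb1-ps, 0.423, 0.347 and 0.509 for Cox5b-ps, and 0.588, 0.476 and 0.69 for Atp5l2-ps. Ndufa12-ps (0.414) and Ndufs5-ps (0.252) passed with TGF-β. In hearts it was 87.7 for Atp5pb-ps, 78.5 for Ndufb1-ps, 74 for Cox5b-ps, 62.6 for Atp5l2-ps, 44.2 for Cox7c-ps1, 30.7 for Ndufs5-ps, 28.3 for Ndufa12-ps, 16.6 for Atp5l-ps1, 14.3 for Atp5c1-ps, 7.8 for Uqcrh-ps1, 4.86 for Atp5l-ps2 and 3.69 for Uqcrh-ps2. Whether reads of parent genes were counted there was not tested.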

How the results depend on the processing

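The check covered 212 named values, each a member called in a comparison. Named values without a call were not in it. Of the recomputed values 3940 kept their direction and side of the threshold, 284 were no longer called and 2 reversed. The reversed ones were Cox4i1 and Cox6a1 in si-IAMP-1 with IL-17, both at -0.01 with total counts (edgeR adjusted p = 0.864 and 0.884). Of the recomputed counts and sums 641 stayed close, 49 were smaller, 20 larger and 18 moved.

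Requiring a 1.5-fold change left 0 higher and 2 lower for si-IAMP-1 and 3 and 1 for si-IAMP-2 in untreated CFs, 1 and 1, and 3 and 2 with IL-17, 1 and 1, and 0 and 1 with TGF-β, 5 and 1, 5 and 1, and 1 and 1 for si-IAMP-2 against si-IAMP-1, 0 lower for IL-17 against untreated and 25 and 3 for TGF-β. With total counts the higher and lower calls were 1 and 67, and 21 and 25 (untreated), 5 and 46, and 28 and 16 (IL-17), 1 and 28, and 10 and 10 (TGF-β), and 52 and 6, 42 and 7, and 34 and 2 between the siRNAs. They also gave 2 positive interactions for TGF-β si-IAMP-1 and 1 negative for si-IAMP-2, and the library size without mitochondrial genes 1 negative. The lower calls of si-IAMP-2 with TGF-β were 6 by DESeq2, 5 with at least 10 counts in every library, 4 with the estimated counts divided by 6 and 4 with the replicate block, and its higher calls 11 with only the 2 groups. IL-17 against untreated had 4 lower calls with only the 2 groups and 5 with the replicate block.

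Same-numbered CF libraries did not deviate together (correlations of -0.165 to 0.059), so the block stays an alternative, and it ended 11 of the 212 named calls. No paired analysis was possible because the heart columns are different mice whose numbers pair nothing.

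The log2 ratio of the nuclear sum to si-NC went with total counts, and then with library sizes without mitochondrial genes, from -0.135 to -0.235 and -0.239 (untreated si-IAMP-1), 0.112 to 0.045 and 0.041 (untreated si-IAMP-2), -0.056 to -0.165 and -0.168 (IL-17 si-IAMP-1), 0.154 to 0.08 and 0.078 (IL-17 si-IAMP-2) and 0.076 to 0.016 and 0.011 (TGF-β si-IAMP-2). The mitochondrial sum went from -0.053 to -0.153 and -0.157, -0.097 to -0.163 and -0.167, -0.013 to -0.122 and -0.125, and -0.006 to -0.081 and -0.083 in the first 4 of these. Here the alternatives leave out the TMM factors, which moves all genes alike. For other changes of calls the cause was not tested.

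Leaving out 1 library at a time, the higher and lower calls ran from 2 to 4 and 36 to 45 (untreated si-IAMP-1), 25 to 31 and 13 to 19 (si-IAMP-2), 10 to 14 and 18 to 23, and 32 to 39 and 8 to 10 (IL-17), 1 to 3 and 8 to 22, and 9 to 19 and 1 to 6 (TGF-β). Between the siRNAs they ran from 41 to 48 and 5 to 8 untreated, 33 to 40 and 7 to 10 with IL-17 and 33 to 42 and 1 to 2 with TGF-β. For IL-17 against untreated they ran from 0 to 1 and 5 to 17, and for TGF-β from 47 to 52 and 17 to 25. Interactions ran from 0 to 1 in each direction for TGF-β si-IAMP-1 (1 positive without si-NC replicate 1 or 3 or si-IAMP-1 replicate 2 or 3, 1 negative without si-NC replicate 2), 0 to 1 positive for IL-17 si-IAMP-1 (without si-IAMP-2 replicate 1), 0 for IL-17 si-IAMP-2, and 1 positive with 1 to 2 negative for TGF-β si-IAMP-2. Hearts stayed at 0. Members below 1 CPM in CFs, such as Cox8b, are limited by depth.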

Other observations

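mt-Atp8 and mt-Atp6, which lie on a common transcript and share 43 bases, had like levels in CFs and unlike levels in hearts. In untreated si-NC CFs mt-Atp8 read 1850 ± 100 and mt-Atp6 2070 ± 33.4 CPM per kb (SD, n = 3), and in Het hearts 3060 ± 681 and 23500 ± 1900 (n = 4). The tables hold different kinds of counts, and the part of the counting in this difference was not tested. The 13 mitochondrial genes took 2.5% of the estimated counts in untreated si-NC CFs, 2.44% with IL-17 and 3.39% with TGF-β.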
